A study of Danio rerio with 8 samples.

Results

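The genes described are 10 components and regulators of COPII, the protein coat that buds transport vesicles from the endoplasmic reticulum (ER). They were taken by name, as the gene rows labelled *sec23a*, *sec23b*, *sec24a*, *sec24c*, *sec24d*, *sec13*, *sec31a*, *mia3*, *creb3l1* and *creb3l2*, and all 10 were found among 32520 gene rows. The cells came from zebrafish (*Danio rerio*) larvae of the AB strain line ulg071 Tg at 4 days post fertilization (dpf). A heterozygous *Tg(sp7:sp7-GFP)* parent had been crossed to a wild-type one, and the GFP-positive offspring were kept, so the cells of both populations carry the reporter, in which GFP sits in the *sp7* gene of bone-forming cells. Pools of 100 to 150 larvae were dissociated and live cells were sorted by fluorescence into P2, with strong GFP (3 libraries, replicates 1, 2 and 4), and P1, with weak GFP (5 libraries, replicates 1, 2, 3, 5 and 6), at 30000 to 50000 cells per sort. The libraries are bulk RNA-seq of amplified cDNA. The gate reads the reporter of *sp7* itself, so the *sp7* level describes the sort and is no finding.

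COPII assembles in layers. The small GTPase Sar1, once loaded with GTP at the ER membrane, recruits the inner coat of Sec23 and Sec24, in which Sec24 picks the cargo and Sec23 stimulates the GTPase of Sar1, and the Sec13–Sec31 cage then closes over it. Procollagen is a large and rigid cargo, and Tango1, the product of *mia3*, spans the ER membrane, holds procollagen through its chaperone and binds Sec23 on the other side. Creb3l1 and Creb3l2, called OASIS and BBF2H7 in mouse, are transcription factors anchored in the ER membrane that are cut free by the site-1 and site-2 proteases in the Golgi. In mouse chondrocytes BBF2H7 acts on *Sec23a*. The zebrafish mutants crusher (*sec23a*), bulldog (*sec24d*) and feelgood (*creb3l2*) have malformed craniofacial cartilage, and human disease genes of the skeleton include SEC23A, SEC24D and CREB3L1.

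The libraries held 7510312 to 10811492 gene reads in P2 and 8528850 to 13034333 in P1. Values are normalized read counts, that is reads divided by 1 size factor per library, and 1 read was worth 0.185 to 0.339 of them. The cDNA was amplified without molecular tags, so read numbers carry counting error and amplification error together. Reads were not corrected for gene length, so levels are compared between populations and not between genes. In bulk libraries fewer cells of a type and less RNA per cell cannot be told apart. The labels do not say whether replicates came from separate clutches, so the p-values measure the spread between these libraries. Nor do they say whether P2 and P1 libraries with the same replicate number came from the same dissociation, which is plausible. The main fit treated all libraries as independent. *sp7* had 1227, 771 and 1028 normalized read counts in P2, against 99.1, 30.0, 57.3, 38.1 and 63.7 in P1. Of the 8 other osteoblast markers tested, 8 were higher in P2, with a summed level of 12489 to 14439 in P2 and 216 to 897 in P1. One more marker row, *bglap*, was at 0 in every P2 library and at most 0.185 in P1, too few reads to be tested.

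Of the 10 genes, 7 passed the test as higher in P2 (limma, Benjamini-Hochberg adjusted p under 0.05 over all genes tested) and 0 as lower, whereas 7.57% of all 18475 tested genes (1398) were called higher and 7.05% (1302) lower. All 10 genes had at least 10 reads in at least 3 libraries and were tested. The genes called were *sec23a*, *sec24a*, *sec24d*, *sec13*, *sec31a*, *mia3* and *creb3l1*, and those not called were *sec23b*, *sec24c* and *creb3l2*. In 8 of 10 genes every P2 library lay above every P1 library, which held for 11.8% of all tested genes. The median log2 fold change, P2 over P1, was 1.46 over the 10 genes and 0.00 over all tested genes. Of all genes called, 51.8% were higher in P2, a share that was 39.9% when the scaling was recomputed over these 8 libraries by the median of ratios or by trimmed means. Well-detected genes leaned towards P2. Each of the 10 genes reached 10 reads in all 8 libraries. Among the 11766 genes that did so, the median was 0.20, and 73.8% of those called were higher in P2. The 10 genes lay 0.33 to 2.68 above that median, and 7 were still called higher, beside 10.9% of these 11766 genes. The count over all genes, 2700, was 901 without P2 replicate 1, 1139 without P2 replicate 4, 1675 without P1 replicate 3 and 1436 without P1 replicate 5.

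**Figure D1:**
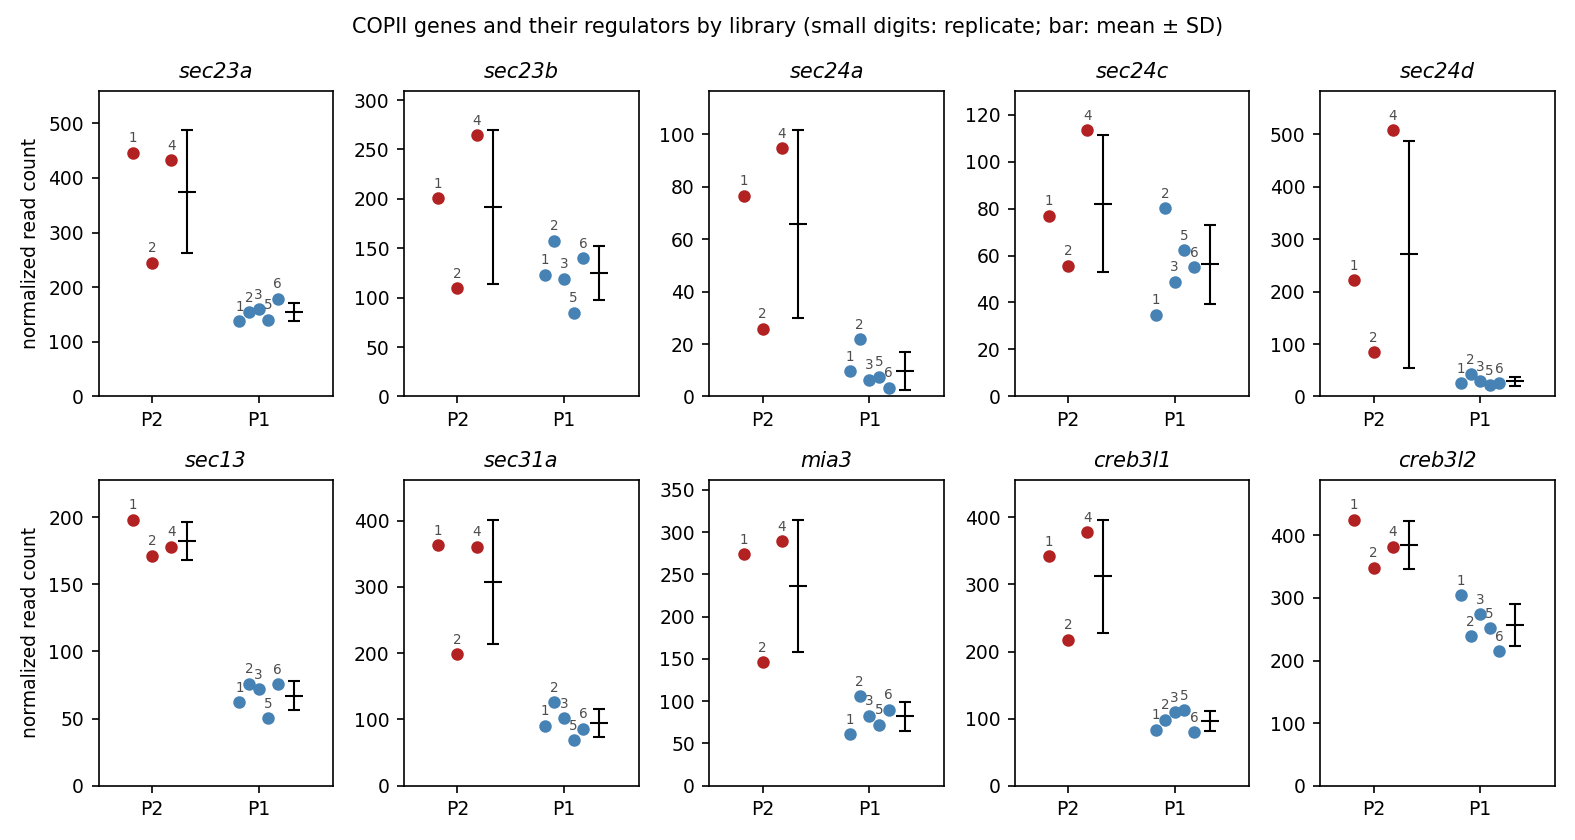
Normalized read count (y axis, from 0, linear) of each of the 10 genes in the 3 P2 libraries (red) and the 5 P1 libraries (blue), with replicate numbers beside the points and bars for the mean ± SD of each population. P2 replicate 2 is the lowest P2 library in all 10 panels, and only *sec23b* and *sec24c* have P2 points within the P1 range.

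Of the 5 inner coat genes 3 were higher in P2 and 2 did not pass, and *sec24d* and *sec24a* had the largest changes of the 10 genes. *sec24d* (ENSDARG00000045946), a cargo adaptor, had 221, 84.2 and 508 normalized read counts in P2, against 25.4, 42.1, 28.8, 21.7 and 24.7 in P1. The groups did not overlap, but the P2 libraries spread widely, with replicate 4 far above replicate 2. P2 averaged 271 ± 216 (SD, n = 3) and P1 28.5 ± 7.97 (SD, n = 5), a 9.50-fold ratio. The change was 2.89 on the log2 scale (SE 0.48, adjusted p = 0.00246), and 132 of the tested genes, 0.714%, had a larger one.

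*sec24a* (ENSDARG00000104375), its paralog, had 76.7, 25.9 and 94.8 normalized read counts in P2, against 9.67, 21.9, 6.42, 7.52 and 3.25 in P1. The lowest P2 library, replicate 2, was only just above the highest P1 library, also replicate 2, and the lowest P1 value rested on 10 reads. P2 averaged 65.8 ± 35.7 (SD, n = 3) and P1 9.74 ± 7.16 (SD, n = 5), a ratio of 6.75. The log2 fold change was 2.67 (SE 0.57, adjusted p = 0.0104, 95% interval 1.44 to 3.91).

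*sec24c* (ENSDARG00000103516), an adaptor of the other Sec24 subgroup together with *sec24d*, had 77.0, 55.6 and 113 normalized read counts in P2, against 34.7, 80.1, 48.9, 62.3 and 54.9 in P1. The groups overlapped, since P1 replicate 2 exceeded P2 replicates 1 and 2. The change of 0.53 on the log2 scale (SE 0.35, 95% interval −0.23 to 1.28) missed the threshold, with an adjusted p of 0.317. The other paralog, *sec24b*, which is not among the 10, behaved in the same way, with a log2 fold change of 0.70 (adjusted p = 0.216) and overlapping groups.

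*sec23a* (ENSDARG00000104230), the coat GTPase activator named by the crusher mutant, had 446, 245 and 433 normalized read counts in P2, against 138, 154, 159.6, 141 and 178 in P1. P2 replicates 1 and 4 were far above all P1 libraries and replicate 2 was nearer to them. P2 averaged 375 ± 112 (SD, n = 3) and P1 154 ± 16.4 (SD, n = 5), a ratio of 2.43, and the change was 1.23 on the log2 scale (SE 0.28, adjusted p = 0.0142). Its paralog *sec23b* (ENSDARG00000019360), the gene of a human erythroid disorder, had 201, 109 and 264 normalized read counts in P2, against 123, 158, 119, 84.8 and 140.1 in P1. P2 replicate 2 lay within the P1 range, and the change of 0.55 on the log2 scale (SE 0.33, 95% interval −0.17 to 1.27) missed the threshold, with an adjusted p of 0.276.

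Both genes of the outer cage were higher in P2. *sec31a* (ENSDARG00000021082), the rod of the cage, had 363, 199 and 361 normalized read counts in P2, against 90.3, 126, 102, 69.0 and 86.2 in P1. No P2 library fell within the P1 range, and the log2 fold change was 1.66 (SE 0.31, adjusted p = 0.00472), a 3.25-fold ratio of means. *sec13* (ENSDARG00000054807), which also serves in the nuclear pore, had 198, 171 and 178 normalized read counts in P2, against 62.2, 76.0, 71.7, 50.2 and 75.4 in P1. Its P2 libraries lay close together, with an average of 182 ± 14.0 (SD, n = 3) against 67.1 ± 10.9 (SD, n = 5) in P1, and the change was 1.44 on the log2 scale (SE 0.27, adjusted p = 0.00501). *sec31b*, the other cage rod, was measured as an outside paralog and did not pass, with a log2 fold change of 1.08 (adjusted p = 0.233).

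*mia3* (ENSDARG00000008184), the procollagen receptor Tango1, had 274, 146 and 289 normalized read counts in P2, against 61.0, 106, 82.8, 71.9 and 90.1 in P1. P2 replicate 2 lay above the highest P1 library, and P2 replicates 1 and 4 lay much farther above it. The log2 fold change was 1.47 (SE 0.31, adjusted p = 0.0103), a 2.87-fold ratio of means. *mia2*, its paralog and partner at ER exit sites, did not pass, with a log2 fold change of 0.32 (adjusted p = 0.553).

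*creb3l1* (ENSDARG00000015793) had 342, 217 and 378 normalized read counts in P2, against 83.7, 98.4, 109.8, 112 and 79.3 in P1. All P2 libraries were well above the highest P1 library, and the log2 fold change was 1.66 (SE 0.28, adjusted p = 0.00304). In mouse osteoblasts its ortholog OASIS acts on the type I collagen gene *Col1a1*. *creb3l2* (ENSDARG00000063563) had 425, 348 and 382 normalized read counts in P2, against 305, 239, 274, 251 and 215 in P1. Its groups did not overlap either, but they lay closer, with an average of 385 ± 38.6 (SD, n = 3) in P2 against 257 ± 34.3 (SD, n = 5) in P1. A change of 0.59 on the log2 scale (SE 0.25, 95% interval 0.04 to 1.13) missed the threshold after adjustment (limma, unadjusted p = 0.0365, adjusted p = 0.131).

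**Figure D2:**
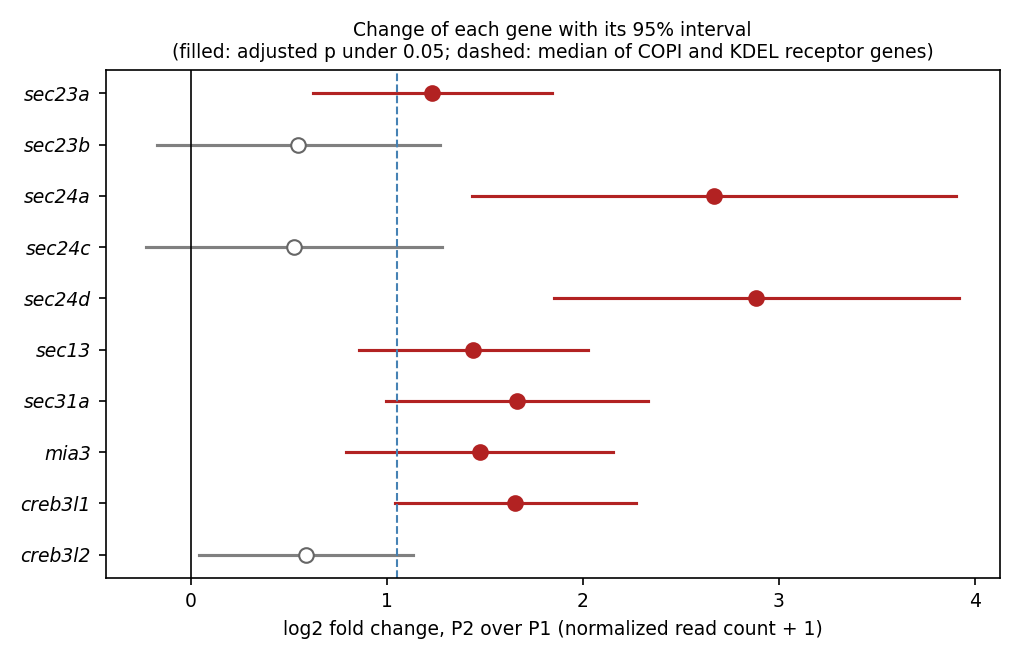
Log2 fold change, P2 over P1, of the 10 genes (x axis, normalized read count + 1) with 95% intervals of the limma fit; filled points passed an adjusted p of 0.05. *sec24d* at 2.89 and *sec24a* at 2.67 lie to the right, and the open points *sec23b*, *sec24c* and *creb3l2* lie between 0.53 and 0.59, left of the dashed line at 1.05, the median of COPI coat and KDEL receptor genes.

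Differences between genes of one layer or family were tested as log2 ratios of value + 1 within each library. Depth largely cancels in these ratios, but not fully at low counts, because of the + 1. An exact permutation test, two-sided, was run on 5 pairs over the 56 divisions of the libraries, for which the smallest p is 0.0179. For *sec24d* over *sec24c* the log2 ratio was 1.51, 0.59 and 2.15 in P2, against −0.44, −0.91, −0.75, −1.48 and −1.12 in P1. All P2 ratios lay above all P1 ratios. The sign of a single ratio depends on gene length and is not read. The difference was 2.36 (exact permutation p = 0.0179, adjusted over the 5 pairs 0.0446).

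*creb3l1* over *creb3l2* gave −0.31, −0.68 and −0.01 in P2, against −1.85, −1.27, −1.31, −1.15 and −1.43 in P1, again with no overlap. The difference was 1.07 (exact permutation p = 0.0179, adjusted 0.0446). *sec23a* over *sec23b* differed by 0.68 (exact permutation p = 0.0357, adjusted 0.0595), with 0.71 to 1.16 in P2 and −0.04 to 0.72 in P1. That pair overlapped only at P1 replicate 5 and did not pass after adjustment. Without that library the difference was 0.78, at the smallest exact permutation p that 7 libraries allow (adjusted 0.0476). Leaving out the overlapping library separates the groups by construction, so that fit is no support. Over all 8 fits with 1 library left out the adjusted value of *sec23a* over *sec23b* ran from 0.0476 to 0.179.

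The other pairs did not differ beyond the spread between libraries. *sec24d* over *sec24a* differed by 0.22 (exact permutation p = 0.607, adjusted 0.607) and *sec31a* over *sec13* by 0.22 (exact permutation p = 0.339, adjusted 0.424). With 1 library left out, the adjusted value ran from 0.0476 to 0.119 for *sec24d* over *sec24c* and for *creb3l1* over *creb3l2*, at the smallest p that 7 libraries allow (0.0286 without a P1 library, 0.0476 without a P2 library). It was under 0.05 only without P1 replicate 5, where *sec23a* over *sec23b* was at the smallest p too. In every other such fit it was 0.0714 or more, so both passes depended on having all libraries. The *sec24d* over *sec24a* difference was −0.06 without P2 replicate 4.

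**Figure D3:**
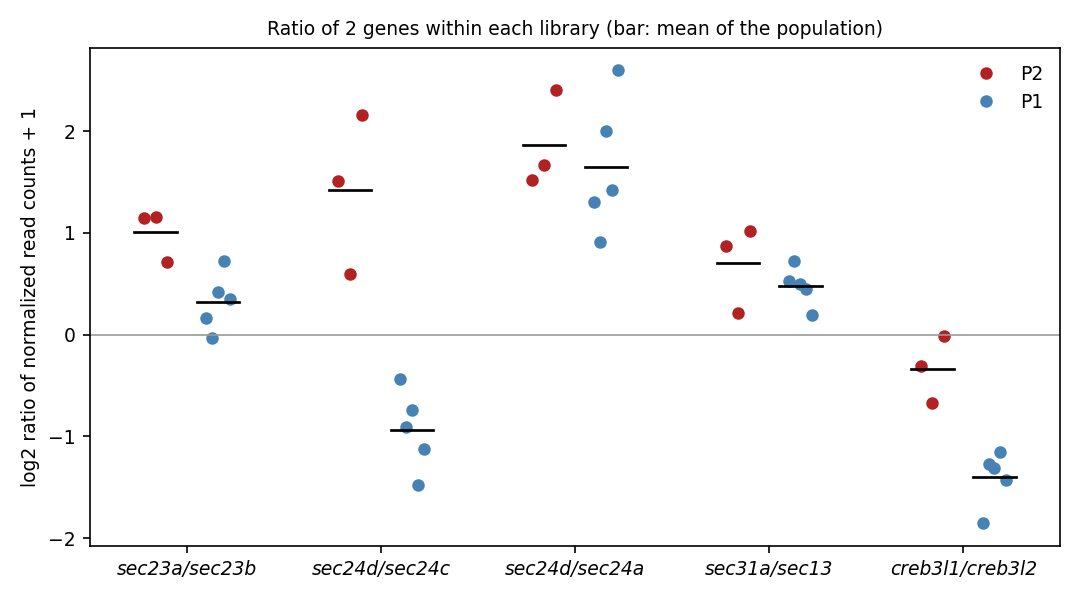
Log2 ratio of the normalized read counts (+ 1) of 2 genes within each library (y axis) for the 5 pairs, with P2 libraries in red, P1 libraries in blue and bars at the population means. The red and blue points are separate for *sec24d*/*sec24c* and *creb3l1*/*creb3l2* and overlap for the other pairs.

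The share of each family's reads taken by its members was also computed. These are shares of reads, not corrected for length, and are read between populations only. *sec24d* took 41.7% to 64.9% of the reads of the sec24 family in P2 and 16.7% to 25.7% in P1. *sec24a* took 12.1% to 15.9% in P2 and 2.43% to 11.7% in P1. The remainder went to *sec24c*, with 14.5% to 27.5% in P2 and 35.2% to 47.9% in P1, and to *sec24b*, with 8.46% to 22.0% in P2 and 22.9% to 38.0% in P1. Each of these 4 ranges is separate between the populations, those of *sec24a* and *sec24b* only narrowly. The shares within a library sum to the whole, so they are not separate results. In level, *sec24b* and *sec24c* were not lower in P2, with log2 fold changes of 0.70 and 0.53, overlapping groups and no call by limma. *creb3l1* took 38.4% to 49.7% of the reads of both factors in P2 and 21.5% to 30.9% in P1. The range of *sec23a* within its pair overlapped, at 62.1% to 69.2% in P2 and 49.4% to 62.4% in P1.

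The P2 libraries were not alike. P2 replicate 2 was the lowest P2 library for all 10 genes, as it was for 69.0% of the 1398 genes called higher in P2. Against the P1 mean, *sec24d* was higher by 1.57 on the log2 scale in P2 replicate 2 and by 3.55 in the mean of P2 replicates 1 and 4. *sec23a* was higher by 0.67 in P2 replicate 2 and 1.51 in the other pair, and *sec31a* by 1.09 and 1.95. *sec13* differed least, with 1.35 in P2 replicate 2 and 1.49 in the others. The uncalled *sec23b* and *sec24c* stood at −0.16 and 0.04 in P2 replicate 2, against 0.91 and 0.77 in the others. The setting with this library alone was added after the data were seen. P1 replicate 2 was the highest P1 library for *sec24a*, *sec24c*, *sec24d*, *sec23b*, *sec31a*, *sec13* and *mia3*. P2 minus P1 (log2) within replicate 1, then within replicate 2, was 2.86 and 0.23 for *sec24a*. It was 2.15 and 0.47 for *mia3*, 1.99 and 0.65 for *sec31a*, and 3.07 and 0.98 for *sec24d*. *sec23a* had 1.69 and 0.67, *sec13* 1.66 and 1.16, *creb3l1* 2.02 and 1.14, and *creb3l2* 0.48 and 0.54. *sec23b* had 0.70 and −0.52, and *sec24c* 1.13 and −0.52.

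P2 replicate 2 also held signal of muscle genes. The summed level of the 15 muscle markers was 211 in P2 replicate 1, 27685 in P2 replicate 2 and 215 in P2 replicate 4, against 2139 to 54952 in P1. With all libraries 0 of 15 were called in either direction by limma, and 13 were called lower in P2 without P2 replicate 2, where 10.6% of all genes were. Of the 8 osteoblast markers tested beside *sp7*, 6 were also lowest in this library among the P2 libraries, as *sp7* itself was. That share is near the 69.0% of all genes called higher in P2. The sum of the osteoblast markers other than *sp7* was highest in P2 replicate 2, at 14439. *spp1* had 7503 normalized read counts in it, against 4088 in P2 replicate 1 and 1928 in P2 replicate 4. Of 11 macrophage markers tested 0 were higher and 5 lower in P2, with sums of 70.9 to 129.9 in P2 and 317 to 416 in P1. *cd74a* was at 0 in every P2 library and had too few reads in P1 to be tested. Of 16 chondrocyte markers 1 was higher and 3 lower, with sums of 2429 to 7185 in P2 and 6346 to 8175 in P1. Of 9 erythroid markers 0 were higher and 1 lower, with sums of 22.5 to 133 in P2 and 17.8 to 2136 in P1. *hbbe3* was at 0 in P2 and also had too few reads in P1 to be tested. The macrophage, chondrocyte and erythroid counts stand beside 7.57% of all genes called higher in P2 and 7.05% called lower. The part of these marker levels in the levels of the COPII genes was not tested.

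The calls depended on which P2 library was left out. Without P2 replicate 1, *sec24d* (adjusted p = 0.0191), *creb3l1* (0.0248), *sec13* (0.0344) and *sec31a* (0.0382) passed in the limma fit, 4 of 10 where 2.19% of all genes were called higher. *sec24a* (0.0637), *mia3* (0.0645) and *sec23a* (0.0818) did not pass. Without P2 replicate 4 the same 4 passed, where 2.46% of all genes did, and the adjusted p was 0.0555 for *mia3*, 0.0611 for *sec24a* and 0.0671 for *sec23a*. Without P2 replicate 2 the same 7 passed, where 11.04% of all genes did, and *sec23b* had an adjusted p of 0.0581. Leaving out any P1 library kept 7 calls, as did each of 12 other settings on all 8 libraries, among them edgeR, where 5.09% of all genes were called higher, and DESeq2, where 8.80% were. In each of these fits all 10 log2 fold changes were above 0.

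**Figure D4:**
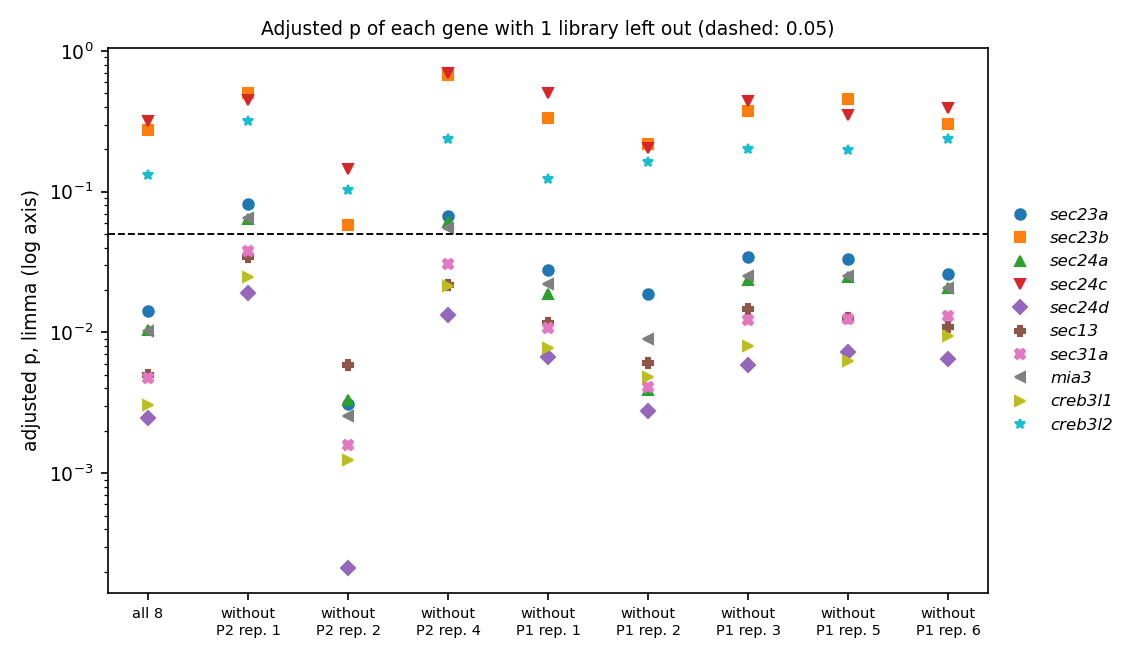
Adjusted p of the limma fit (y axis, log scale) for the 10 genes with all 8 libraries and with each library left out in turn; the dashed line is 0.05. *sec23a*, *sec24a* and *mia3* lie above the line without P2 replicate 1 and without P2 replicate 4, whereas *sec24d*, *creb3l1*, *sec13* and *sec31a* lie below it in all fits.

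Other COPII components and regulators were examined as a list, which reached beyond the coat itself, for example to *trappc1* and *cul3a*. No row was labelled *sar1aa*, *sec16a* or *ctage5*, and *klhl12* and *tecpr1a* had too few reads to be tested. Of 20 tested genes of a list of other COPII components and regulators, 3 were higher in P2 and 0 lower, with a median log2 fold change of 0.34, beside 0.00 over all genes. This count and those of the lists that follow stand beside the 7.57% of all genes called higher, which was 2.19% without P2 replicate 1 and 2.46% without P2 replicate 4. Without P1 replicates 1, 2, 3, 5 and 6 in turn it was 5.47%, 8.51%, 4.29%, 3.98% and 4.80%. *sec16b*, of the family that scaffolds ER exit sites, rose by 1.51 on the log2 scale (adjusted p = 0.0452), *tfg*, which organizes those sites, by 1.28 (0.0144), and the GTPase *sar1b*, which starts the coat, by 1.23 (0.0108), all in limma. The call of *sec16b*, at 11.2 to 20.2 normalized read counts in P2 and 2.42 to 6.49 in P1, held in 5 of 11 other settings and 1 of 8 fits with 1 library left out, and was lost in edgeR (adjusted p = 0.0720) and under each other scaling (at most 0.0634). *sar1b* had 490, 509 and 477 normalized read counts in P2, against 221, 276, 224, 174 and 165 in P1, with no overlap. Its paralog *sar1ab* had a log2 fold change of −1.72 and did not pass (adjusted p = 0.148). *preb*, the exchange factor that loads Sar1 with GTP, had 0.56 (adjusted p = 0.511). The list held 0 genes called higher without P2 replicate 1 and 1 without P2 replicate 4.

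No gene of the list on the CREB3 family and its activation passed, a list that did not hold *creb3l1* and *creb3l2*, described above. No row was labelled *creb3*, *creb3l4* or *atf6b*. Of 7 tested, 0 were called by limma, 0 by edgeR and 0 by DESeq2, and 1 had an unadjusted p under 0.05. The median log2 fold change was 0.45, with values from −0.05 to 0.77. *mbtps1* and *mbtps2*, the site-1 and site-2 proteases, had log2 fold changes of 0.45 and −0.05, *atf6* had 0.17 and *xbp1*, a factor of the unfolded protein response, 0.56. The 1 gene at an unadjusted p under 0.05 was *creb3l3l*, with 0.77 (adjusted p = 0.0631), named after its values were seen as well as for its family. Without P1 replicate 2, 1 gene of the list passed. *creb3l3a* and *creb3l3b* had no read in any P2 library and too few in P1 to be tested.

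The return route was examined in the same way. COPI coats the vesicles that carry escaped ER proteins back from the Golgi, and the KDEL receptors catch them. Of 21 genes 14 were higher in P2 and 0 lower, with a median of 1.05. They included the receptor *kdelr3*, at 164, 192 and 186 normalized read counts in P2, against 45.6, 66.7, 40.5, 26.0 and 31.2 in P1 (log2 fold change 2.15, adjusted p = 0.00163). Also higher were the COPI coat subunit *copb1* at 1.62 (adjusted p = 0.00607) and the GTPase activators *arfgap1* at 2.41 (0.0125) and *arfgap2* at 1.60 (0.0154). *arfgap1* rested on 4 to 80 reads, and its change was 1.49 with a pseudocount of 5. Its call was lost in limma without P2 replicate 1 (adjusted p = 0.0608) or P2 replicate 4 (0.0620), and that of *arfgap2* without P2 replicate 4 (0.0831). The list held 7 called genes without P2 replicate 1, 5 without P2 replicate 4 and 9 without P1 replicate 5.

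Cargo receptors and the fusion machinery between ER and Golgi gave 5 genes higher and 2 lower of 41, with a median of 0.59. *surf4l*, of the Surf4 family of cargo receptors, had 686, 720.5 and 899 normalized read counts in P2, against 112, 309, 148, 68.7 and 115 in P1. The groups did not overlap, and its log2 fold change was 2.52 (adjusted p = 0.00203). *lman1*, a lectin receptor of glycoproteins, rose by 1.54, the SNARE *sec22bb* by 1.38, the Golgi stacking gene *gorasp2* by 1.11 and *yipf5* by 0.87. *rab1bb* and *tmed4* fell by 2.77 and 1.74, at low counts of 0.00 to 9.36 for *rab1bb* in P2 and 16.6 to 28.0 in P1. Neither lower call held in edgeR (adjusted p = 0.0718 and 0.0716) or without P2 replicate 1, *tmed4* passed in 1 of 8 fits with 1 library left out, and the change of *rab1bb* was −1.72 with a pseudocount of 5. *yipf5* passed in 3 of 12 other settings and in 1 of 8 fits with 1 library left out, and *sec22bb* in 12 of 12 and 4 of 8. The number of list genes called higher was 3 without P2 replicate 1, 2 without P2 replicate 4, 3 without any 1 of P1 replicates 1, 5 and 6, and 9 without P1 replicate 2.

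At the entry to the ER, 5 of 23 genes of the translocon and signal peptidase list were higher in P2 and 0 lower, with a median of 0.53. They were *ssr1*, of the translocon-associated complex, at 2.98 (adjusted p = 0.0130), *srp72*, of the signal recognition particle, at 1.66 (0.0279), *tram1* at 1.23, *tram2* at 1.22 and the channel subunit *sec61a1l* at 1.09. The count was 0 without P2 replicate 1, 2 without P2 replicate 4 and 3 in edgeR, where *srp72* (adjusted p = 0.0634) and *tram2* (0.0708) were lost, and *tram2* passed in 2 of 8 fits with 1 library left out.

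Procollagen chains, the cargo, were examined as a list as well. Of 19 procollagen chain rows 5 were higher in P2, 0 lower and 14 not called, with a median of 1.01. *col10a1a*, a type X chain, had 51802, 37514 and 33015 normalized read counts in P2, against 392, 127, 96.3, 151 and 231 in P1. *col5a2b* had a log2 fold change of 8.20, *col10a1b* of 5.48, *col11a2* of 1.99 and the type I chain *col1a1b* of 1.42 (adjusted p = 0.0371), which passed in 2 of 8 fits with 1 library left out. The count was 9 without P2 replicate 2 and 10 in DESeq2, which also called 1 row lower. It was 3 when at least 10 reads were required in every library, a setting in which 10.9% of all genes were called higher. That filter removed *col5a2b* and *col10a1b*, whose lowest libraries had 4 reads and 1 read, so their calls were not tested in it.

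The sum of the 7 coat genes was 1583, 890.0 and 1951 normalized read counts in P2, against 436 to 657 in P1. For each normalized count of these, the procollagen chains had 106, 125 and 69.4 in P2, and 65.3 to 147 in P1, so the cargo-to-coat ratio overlapped between the populations although both sums were separate. Without *col10a1a*, an alternative chosen after the data were seen, the ratio was 52.5 to 82.5 in P2 and 65.1 to 146 in P1, and again overlapped.

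**Figure D5:**
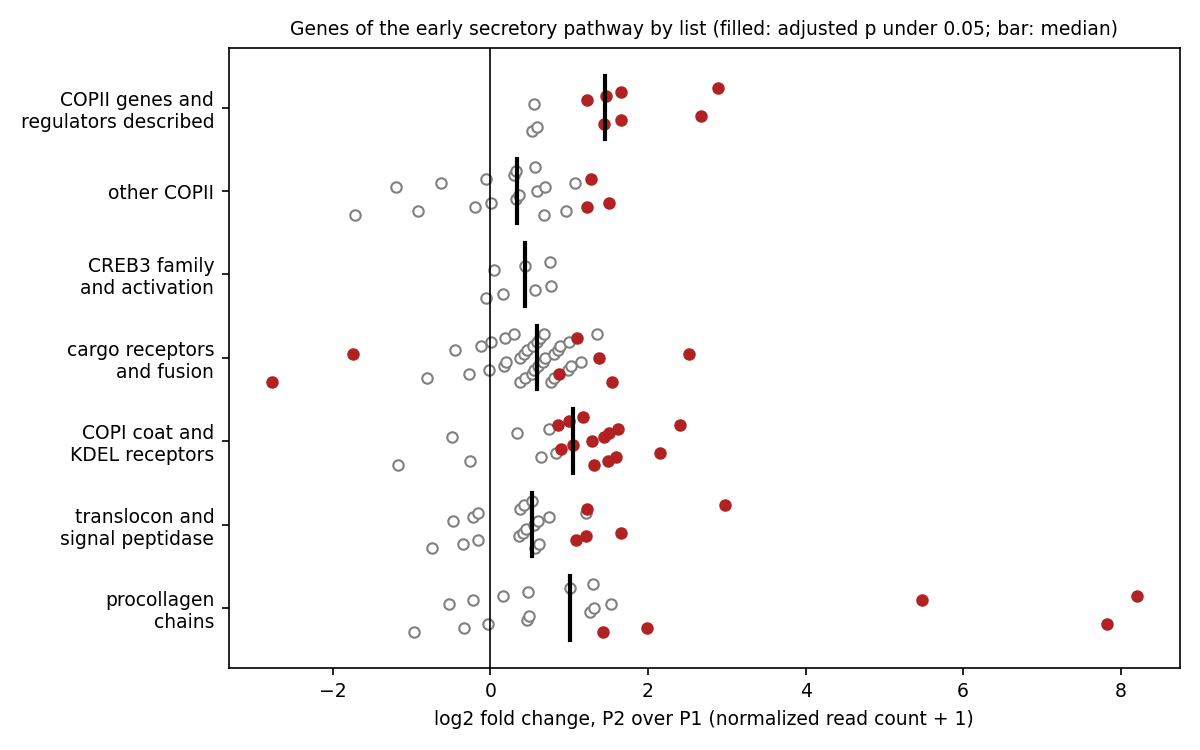
Log2 fold change, P2 over P1 (x axis, normalized read count + 1), of each tested gene of 7 lists, with filled points for an adjusted p under 0.05 and bars for the list median. The 10 genes described have a median of 1.46 and the COPI and KDEL receptor list 1.05, while the other COPII list has 0.34.

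The genes whose profile was most like *creb3l1* over the 8 libraries were found by the root mean square difference of log2 values after centring on the P1 mean. By this measure genes with a change of similar size come close, so the ranks largely restate the fold changes and are not read as a link to *creb3l1*. The nearest were *inavab* at 0.19, *inhbb*, a subunit of activin and inhibin, at 0.20, *NCEH1* at 0.20, *coq8aa* at 0.21 and *plagl2* at 0.21, with *NCEH1* resting on 0.00 to 5.09 normalized read counts. Among 18474 other tested genes, *mia3* ranked 29, *sec31a* 33, *sec23a* 87 and *sec13* 124. *creb3l2* ranked 2511, *sec24c* 3154 and *sec23b* 3408, and *sec24a* and *sec24d*, whose changes were larger than that of *creb3l1*, ranked 5278 and 5452.

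The genes next to the 10 on their chromosomes were also examined. In the gene order of the RefSeq assembly GRCz12tu, the 10 genes have 20 next protein-coding neighbors, of which 15 were tested, 1 was higher in P2 and 0 were lower in limma, a share near the 7.57% of all genes called higher. That neighbor was *sar1b*, which lies next to *sec24a*. For 4 of the 10, *sec23a*, *sec23b*, *sec24a* and *mia3*, other coding gene models overlap in that assembly. Of 15 such genes tested 0 were higher and 2 lower in P2, where 7.05% of all genes were called lower. Those 2 were *clec14a* beside *sec23a* (log2 fold change −1.96, limma adjusted p = 0.0107) and *macroh2a1* beside *sec24a* (−1.86, 0.0393). Both were named after their values were seen, and the count of 2 is not read as a result. The reads were counted on another assembly, GRCz11, in which these overlaps were not checked. The paper names a stranded kit only for its whole-larva libraries, and whether the counting used strand is not given in the sources used here. If the gene models overlap in GRCz11 too, the values of *sec23a*, *sec23b*, *sec24a* and *mia3* are less certain.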

How the data were processed

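RNA-seq of P2 and P1 cells was analysed from 1 of 4 deposited files. Per the labels and methods, the authors ran nf-core rnaseq 3.0 on GRCz11 with Ensembl release 103, then DESeq2. The deposited signal is a normalized count, a read count that the authors divided by 1 size factor per library. Multiplied back, 100% of values were whole reads within 0.01 read (largest distance 9.72e-05), although whether these are rounded estimates is not given in the sources used here. Columns of no sample (10) and 2 files of the authors' fold changes and p-values were not used.

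log2(value + 1) of genes with 10 reads in at least 3 libraries was fitted on population with limma 3.58.1 (variance trend, R 4.3.3). On recovered reads, edgeR 4.0.16 (940 genes higher, 1042 lower) and DESeq2 1.42.0 were alternatives, beside pseudocounts, filters, scalings, each library left out and a replicate block. Only the limma fit was tested on simulated counts, with the same spread setting for every gene and changes larger than those of most of the 10 genes. The permutation test and the other steps were not tested in this way. Members and lists were chosen with earlier results of these data known. Named genes were the members, *sp7*, up to 4 called genes with the largest change per list (3 for procollagen and markers), paralogs, the 5 profiles nearest to *creb3l1*, and all called genes of lists with at most 5, *preb*, *sar1ab*, *atf6*, *xbp1*, *mbtps1* and *mbtps2* by role. Promoters and proteins were not analysed here.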

Additional observations from a re-analysis of the deposited data

Results flagged for a closer look

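In 54 groups of 5 P1 libraries, 1 per named gene, 4 had a highest library whose gap to the next exceeded 0.71 of the range. About 1 in 20 groups would pass such a limit if values were normally distributed. That was not checked for these counts, so the number of flags is not read as a result. None of the 4 was one of the 10 COPII genes and regulators. *copb1* had 224.6 normalized read counts in P1 replicate 2, where the next P1 library had 140.8. *col10a1b* had 15.3 in P1 replicate 5, with 4.23 next. *ifitm5*, an osteoblast marker, had 55.0 in P1 replicate 1, with 17.2 next. *hbae1.1*, a hemoglobin gene, had 565 in P1 replicate 5, with 58.9 next.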

How the results depend on the processing

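With all 8 libraries, 7 of the 10 genes passed under each of 12 other settings. Rescaling by the median of ratios moved the median of all genes to −0.12 on the log2 scale, relative to which the 10 genes lay between 0.51 and 2.87 higher. Counts of all genes called were 1741 with at least 10 reads in every library and 1601 in voom, and procollagen and translocon counts under DESeq2 (10), edgeR (3) and the stricter filter (3) are given above. *sec23a* over *sec23b* passed with a pseudocount of 5 (0.68, exact permutation, adjusted p = 0.0298). Without a pseudocount the ratio was 1.64 in P2 replicate 4 and 1.66 in P1 replicate 5, which overlap. That pass therefore rests on the pseudocount and is no support. The pair also passed without P1 replicate 5, whose removal separates the groups by construction. With 1 library left out, ranges were 901 to 4004 for all genes, 4 to 7 for the members, 0 to 4 for other COPII, 0 to 1 for CREB3 activation, 2 to 9 for cargo receptors and fusion, 5 to 13 for COPI, 0 to 5 for the translocon and 4 to 9 for procollagen. Pair differences then ran from 1.99 to 2.77 (*sec24d*/*sec24c*), 0.91 to 1.24 (*creb3l1*/*creb3l2*), 0.59 to 0.83 (*sec23a*/*sec23b*), −0.057 to 0.45 (*sec24d*/*sec24a*) and 0.06 to 0.46 (*sec31a*/*sec13*).

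P2 and P1 share only replicate numbers 1 and 2. The sample codes of these same-numbered libraries also share a stem, and the paper plots P1 and P2 as gates on the same cells. A common dissociation is therefore plausible, but the labels do not say what the stem marks. Deviations of same-numbered libraries correlated at 0.00100 and −0.127 over 18475 genes. With so few libraries per population, such correlations cannot decide whether the numbers mark pairs. The fits of all 8 libraries did not take them as pairs. In these 4 libraries the replicate block called 454 of 18475 genes, 129 higher and 325 lower in P2, and 0 of the 10. It called 0 genes of the other COPII, cargo and COPI lists, 1 translocon gene and 3 procollagen rows. Without the replicate block the same 4 libraries gave 199 genes, 77 higher and 122 lower in P2, and 0 of the 10. They gave 0 in the other COPII, cargo, COPI and translocon lists and 3 procollagen rows. With so few of all genes called higher, the 0 of the 10 is not read as a result. The crossed numbers correlated at 0.101 and −0.0630.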
